A study of Mus musculus with 9 samples.

Results

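The interferon regulatory factors are a family of transcription factors that share a DNA-binding domain and carry much of the transcriptional response to interferon and to microbial products. They were followed here in the liver of mice given an agonist of CD40, a receptor of the TNF receptor family that activates antigen-presenting cells. The members were taken by gene name alone and not by value. They are 8 genes of the deposited table (Irf1, Irf2, Irf3, Irf4, Irf5, Irf7, Irf8, and Irf9), which lists 24341 genes in all. RNA from whole liver was sequenced 48 hours after treatment in 9 C57BL/6 mice of wild-type genotype. Of these, 3 had received the CD40 agonist FGK45 (anti-CD40, mice 2, 5, and 9) and 6 had received PBS (control, mice 3, 4, 7, 8, 11, and 12). Every library came from 1 mouse and 1 time point, and the labels give no age. The values are FPKM (fragments per kilobase of transcript, with the number of mapped fragments divided out) from a 3′ end library. Because a 3′ library gives no more reads for a longer transcript, FPKM were compared between mice for the same gene. Sums of FPKM over several genes, and the share of a gene in them, also depend on transcript length and are description only.

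As background, the members fall into groups by what they do. IRF3, IRF5, and IRF7 wait in the cytoplasm until Toll-like receptors or nucleic acid sensors activate them, and then drive interferon and cytokine genes; IRF7 is itself made in larger amounts under interferon. IRF9 is the DNA-binding subunit of ISGF3, the complex with STAT2 that is formed under type I interferon. IRF1 is induced by IFN-γ and activates antigen presentation genes, and IRF2 binds the same sites and often opposes it. IRF4 and IRF8 bind DNA together with PU.1 and other partners in immune cells, where IRF8 guides the monocyte and dendritic cell lineages and IRF4 guides activated lymphocytes and plasma cells.

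The start of transcription of 8 members could be matched to RefSeq promoter windows (GRCm38, the assembly of mm10, 250 bases before to 50 after a start, 11 windows). Both strands were searched for TTCNNNGAA, the STAT site called GAS, and for GAAANNGAA, the repeat at the core of the interferon-stimulated response element. The GAS letters were present in 8.30% of all 32851 windows and the repeat in 8.56%. Among the 8 members with their 11 windows, 3 held the GAS letters (Irf1, Irf2, and Irf8, each in 1 window) and 1 held the repeat (Irf2). These 3 promoters are shown because they hold a match, although only Irf8 among them was called. A match describes the letters in the window, and binding was not measured. Each line gives the 250 bases before the start, 5′ to 3′ on the + strand, with the matches in capitals. The first is chr11:53769764-53770013, the second chr8:46739495-46739744, and the last chr8:120736108-120736357.
Irf1: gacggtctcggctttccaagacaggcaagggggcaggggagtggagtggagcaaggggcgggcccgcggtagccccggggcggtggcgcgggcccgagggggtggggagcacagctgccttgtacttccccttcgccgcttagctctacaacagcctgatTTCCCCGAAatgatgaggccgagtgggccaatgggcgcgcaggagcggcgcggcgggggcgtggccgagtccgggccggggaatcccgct
Irf2: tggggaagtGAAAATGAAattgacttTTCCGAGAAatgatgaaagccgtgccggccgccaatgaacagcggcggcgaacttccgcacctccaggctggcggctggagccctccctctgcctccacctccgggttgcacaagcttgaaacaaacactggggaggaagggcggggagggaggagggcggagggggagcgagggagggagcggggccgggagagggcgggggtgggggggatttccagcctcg
Irf8: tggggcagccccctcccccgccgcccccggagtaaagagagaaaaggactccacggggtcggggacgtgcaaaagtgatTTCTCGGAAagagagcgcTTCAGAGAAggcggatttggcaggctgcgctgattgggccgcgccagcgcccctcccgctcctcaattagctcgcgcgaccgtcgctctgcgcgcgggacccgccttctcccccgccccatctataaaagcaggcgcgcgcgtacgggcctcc
The Irf1 match, TTCCCCGAA, lies 90 to 82 bases before the start, and a second Irf1 start has no match. Irf2 carries the repeat GAAAATGAA at 241 to 233 bases and TTCCGAGAA at 224 to 216 bases before its start. Irf8 carries a pair of matches close to each other, TTCTCGGAA at 171 to 163 bases and TTCAGAGAA at 153 to 145 bases, and a second Irf8 start has none.

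After anti-CD40, 5 members rose (Irf4, Irf5, Irf7, Irf8, and Irf9), 1 fell (Irf3), and 2 did not pass the test (Irf1 and Irf2). These calls come from limma on log2(FPKM + 0.1), with p adjusted by Benjamini-Hochberg over all 13807 genes tested and a threshold of 0.05. Of all genes tested, 45.1% were called, 23.5% as higher and 21.7% as lower, so a call by itself was common in these livers. The median log2 fold change was 0.55 over the 8 members and 0.0056 over all genes tested. The groups did not overlap in 7 members, 6 higher and 1 lower after anti-CD40, and in 42.4% of all genes tested, 22.7% higher and 19.6% lower. With a fold change of at least 2 also required, Irf4, Irf7, and Irf8 remained higher and Irf3 remained lower, while this rule took 13.7% of all genes as higher and 9.08% as lower. A log2 fold change on this scale understates the change of a gene with low FPKM, which matters for Irf4. In whole liver, a change in the number of cells of a type and a change in RNA per cell cannot be told apart.

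**Figure D1:**
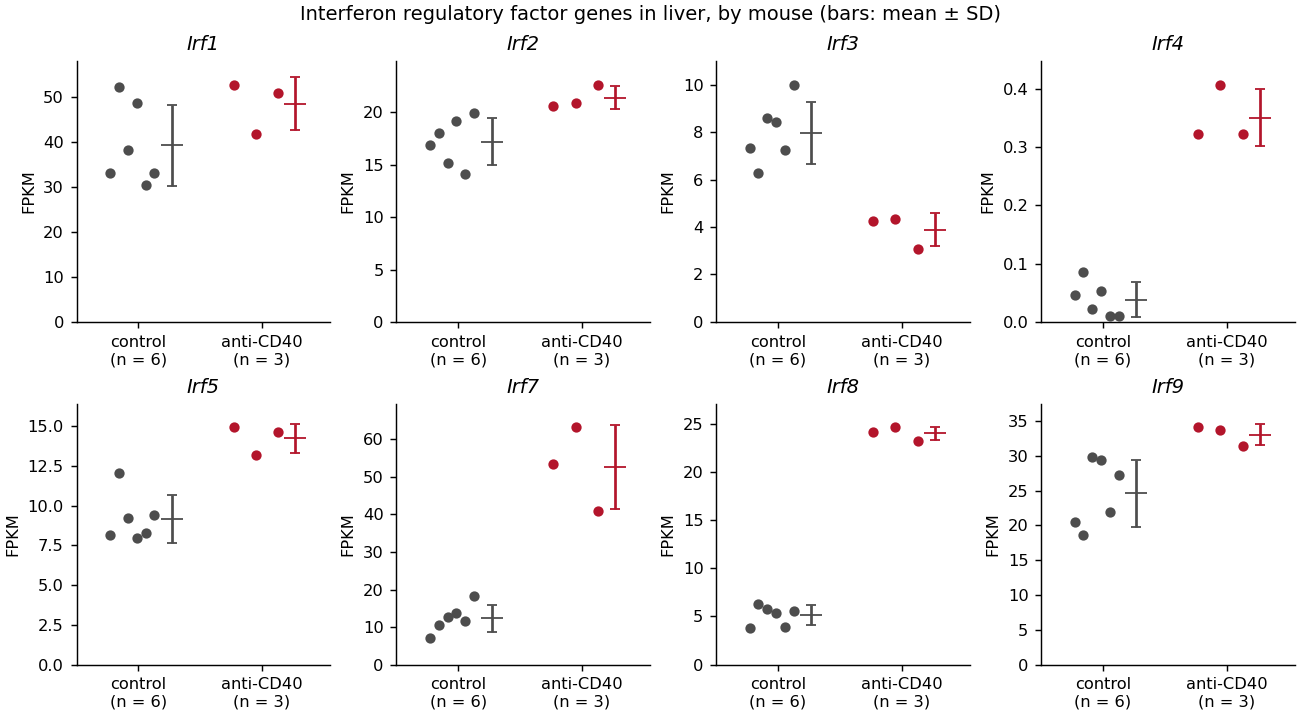
FPKM of each of the 8 Irf genes in each mouse, with 6 control mice in gray and 3 anti-CD40 mice in red; each panel has its own axis from 0, and the cross beside each group gives the mean ± SD. The groups overlap in Irf1 only, Irf3 is the gene with lower values after anti-CD40, and the lowest Irf4 points lie at the floor of the table, 0.01.

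Facts of the libraries bear on these values. Each mouse had 14684 to 15545 genes above the floor, and median ratios to the geometric mean over mice were 1.004 to 1.010. Scaling the libraries by such ratios would set them near 1, so they do not test the scale between groups. Saa1, Saa2, and Saa3 made up 25.4% to 25.9% of summed FPKM after anti-CD40 and 0.0449% to 0.380% in control mice. Hepatocyte transcripts were abundant in every mouse, with a summed FPKM of 10 markers of 5113 to 6263 after anti-CD40 and 13721 to 25158 in control mice. The library of anti-CD40 mouse 5 stood apart by pancreatic enzyme transcripts, whose summed FPKM over 12 genes, a list chosen after its values were seen, was 1351 against 28.2 in mouse 2, 34.5 in mouse 9, and 71.2 to 190 in control mice. Without mouse 5, 5 members were called, and Irf9 was the member lost.

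Irf8 (chr8:120736358-120756692) rose 4.70-fold, with little spread among the anti-CD40 mice. After anti-CD40, mice 2, 5, and 9 had 24.2, 24.6, and 23.2 FPKM. The 6 control mice had 3.79 to 6.31 FPKM, with a median of 5.47. The anti-CD40 mice lay close together, all far above the highest control, mouse 4. On the log2 scale the change was 2.23 (SE 0.17, limma adjusted p = 5.45e-06), and the 95% confidence interval of the fold was 3.60 to 6.14. Where the low steps of FPKM give whole reads, the smallest numbers that could be fitted were 1415, 1357, and 1192 reads after anti-CD40 and 191 to 344 in control mice. Leaving out mouse 5 gave a log2 fold change of 2.21, and over 19 alternatives it stayed between 2.05 and 2.59.

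Irf4 (chr13:30749258-30766927) rose from a level near the floor of the table. Anti-CD40 mice 2, 5, and 9 had 0.322, 0.407, and 0.322 FPKM. Control mice 3, 4, 7, and 8 had 0.0467, 0.0865, 0.0215, and 0.0523 FPKM, and mice 11 and 12 were at the floor of 0.01. Every anti-CD40 mouse was above every control. The smallest whole reads that fitted these values were few, 16, 19, and 14 after anti-CD40 and 2, 4, 1, 2, 0, and 0 in control mice 3, 4, 7, 8, 11, and 12. Its log2 change was 1.73 (SE 0.24, limma adjusted p = 2.20e-04), but its size depended on the pseudocount, as it was 0.38 with a pseudocount of 1 and 3.15 with 0.01. Irf4 passed the filter, a mean of 0.1 FPKM, only through the anti-CD40 mice, so that a gene with its control level had to differ to be tested at all. The log2 ratio of Irf8 to Irf4 was 5.75 ± 0.12 (SD, 3 mice) with anti-CD40 and 5.25 ± 0.35 (SD, 6 mice) without, a difference of 0.50 (exact permutation test, p = 0.0476, 0.0952 after adjustment over 4 ratios). This difference turned to -0.90 with a pseudocount of 0.01, so no direction can be read from it.

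Genes that mark the cells in which these factors are known to act were followed beside them, and the lists did not share a direction. Here and for the lists that follow, a number in parentheses after a gene is its log2 fold change, and falls are given on the same scale. Summed FPKM are over all listed genes in the table, tested or not. Counts of called genes stand against the 45.1% of all genes called, 23.5% as higher and 21.7% as lower. All lists were compiled with results of these mice known, so these counts and shares are description and no test of a list. As with Irf4, a listed gene whose control mean was under 0.1 FPKM passed the filter only through the anti-CD40 mice and had to differ to be tested, so such genes are named beside their list. Of 10 B cell markers, 9 were tested and called as higher, with a median log2 fold change of 2.51 and a summed FPKM of 33.6 to 49.2 after anti-CD40 against 1.97 to 8.77 in control mice. Cd79a and Blk were tested only through the anti-CD40 mice, and with no filter 9 of 10 were higher. Their largest rises were Fcer2a (4.87), which encodes the low-affinity IgE receptor CD23, and Ms4a1 (4.30), which encodes CD20. Of 13 monocyte and macrophage markers, 8 rose, 1 fell, and 4 were not called (median 2.80, summed FPKM 383 to 505 against 68.4 to 104), led by Chil3 (7.88), which passed the filter only through the anti-CD40 mice, and Ly6c2 (5.61), with Adgre1, which encodes F4/80, falling by 1.49 on the log2 scale.

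Dendritic cell genes divided. Of 10 conventional dendritic cell markers tested, 6 rose, 1 fell, and 3 were not called (median 0.78, summed FPKM 38.0 to 49.8 against 20.4 to 27.1). The share called was 70%, against 45.1% of all genes. Itgax (4.21), which encodes CD11c, and Ccr7 (3.46), the receptor that guides migrating dendritic cells, rose most, and Cadm1 fell by 0.73. Cadm1 gave much of the control sum, with a mean of 16.2 FPKM in control mice and 9.68 after anti-CD40. Flt3 passed the filter only through the anti-CD40 mice and Mgl2 only through the control mice. Without anti-CD40 mouse 2, 3 of 11 tested rose and 1 fell, and with no filter 4 of 12 rose and 1 fell. Xcr1, which marks the dendritic cells that depend on IRF8 and was picked after its values were seen, had a log2 change of -0.05 (limma adjusted p = 0.896). Clec9a of the same list, also picked after its values were seen, was called as higher, at 0.85 (limma adjusted p = 0.0348). Xcr1 alone therefore does not speak for those cells. The plasma cell list, where IRF4 acts, had 2 of 6 higher and 4 not called (median 0.28, summed FPKM 249 to 259 against 202 to 258). Its share called was 33.3% against 45.1% of all genes, and its risers were Mzb1 (4.16) and Prdm1 (1.42), which encodes BLIMP1. Most of the sum came from Sdc1 (mean 112 FPKM after anti-CD40 and 139 in control mice) and Xbp1 (87.8 and 82.9), neither of them called. All 7 Kupffer cell markers fell (median -3.49, summed FPKM 41.1 to 51.1 against 288 to 461), led by Clec4f, which fell by 6.77, and Vsig4, which fell by 6.50. The part of any of these cell types in the values of Irf4 and Irf8 was not tested.

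The partners and cofactors of the family, a list of 17 genes, had 12 higher, 1 lower, and 4 not called, with a median log2 fold change of 1.44. The share called was 76.5%, against 45.1% of all genes. Spi1, which encodes PU.1, had an FPKM of 12.2, 12.5, and 10.8 in anti-CD40 mice 2, 5, and 9 and 1.72 to 3.90 in controls, a log2 change of 1.92 (SE 0.25, limma adjusted p = 1.41e-04). Spib, at a log2 change of 3.50, and Batf, at 3.05, rose most. Spib encodes a close relative of PU.1, and Batf encodes an AP-1 factor that binds with IRF4 and IRF8. Irf2bp1, a corepressor named for IRF2, was called as lower, by 0.73, and its relative Irf2bp2 had a log2 change of -0.23 (limma adjusted p = 0.436). The Irf2bp1 call was lost with no filter, with the Saa genes left out, and without anti-CD40 mouse 2 or 5, where the adjusted p lay between 0.0588 and 0.146.

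Irf7 (chr7:141263183-141266424) rose 4.34-fold. It measured 53.5, 63.2, and 40.9 FPKM in anti-CD40 mice 2, 5, and 9. Control values ran from 7.09 in mouse 3 to 18.3 in mouse 12, with a median of 12.1. The lowest anti-CD40 mouse was above the highest control, although both groups were more spread than for Irf8. The change came to 2.12 on the log2 scale (SE 0.26, limma adjusted p = 8.90e-05), and the 95% confidence interval of the fold was 2.93 to 6.43. Its smallest whole reads were 1847, 2053, and 1237 after anti-CD40 and 211 to 513 in control mice. The highest value came from mouse 5, and without it the log2 fold change was 1.97 (limma adjusted p = 8.50e-04).

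Irf3 (chr7:44997648-45002848), which is made constitutively and activated by phosphorylation, went the other way. Mice 2, 5, and 9, given anti-CD40, had 4.27, 4.33, and 3.07 FPKM. Control mice had 6.26 to 9.99 FPKM, with a median of 7.89. Each of the anti-CD40 mice was below the lowest control, mouse 4. The log2 change was -1.02 (SE 0.17, limma adjusted p = 7.30e-04), a level 2.02-fold lower. The smallest whole reads were 173, 165, and 109 after anti-CD40 and 236 to 329 in control mice. The call held in 19 of 19 alternatives, from -1.12 with quantile normalization to -0.66 with the Saa genes left out and the mice rescaled. Of 10 hepatocyte markers, 7 fell, 1 rose, and 2 were not called (median -1.01), with Alb, which encodes albumin, and Ttr falling most, by 2.43 and 1.96, and Apob (0.74) rising. Of these markers, 80% were called, against 45.1% of all genes, and with no filter 5 of them fell and 1 rose. Their part in the fall of Irf3 was not tested.

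Irf5 (chr6:29526625-29537320), which acts below MyD88 in macrophages and B cells, rose less. It stood at 14.9, 13.2, and 14.6 FPKM in anti-CD40 mice 2, 5, and 9. The control range was 7.94 to 12.1 FPKM around a median of 8.74. The groups did not overlap, and control mouse 4 came nearest to the anti-CD40 mice. The rise was 0.64 on the log2 scale (SE 0.14, limma adjusted p = 0.00405), 0.73 without control mouse 4 and 0.70 without anti-CD40 mouse 5. The smallest whole reads were 657, 547, and 564 after anti-CD40 and 269 to 494 in control mice.

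Because both genes were read in the same mouse, the ratio of Irf7 to Irf3 is little affected by a constant scaling of a library. On the log2 scale it was 3.62, 3.84, and 3.69 in anti-CD40 mice 2, 5, and 9. Among control mice it lay between -0.05 in mouse 3 and 0.86 in mouse 12. The difference was 3.13, or 8.78-fold, larger than the spread within either group (SD 0.11 after anti-CD40 and 0.32 in control mice). Permuting the mice over all 84 splits (exact permutation test, 2-sided) gave p = 0.0238, the smallest it can give, and 0.0952 after adjustment over the 4 ratios examined. The change in this ratio was the sum of the rise of one gene and the fall of the other.

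**Figure D2:**
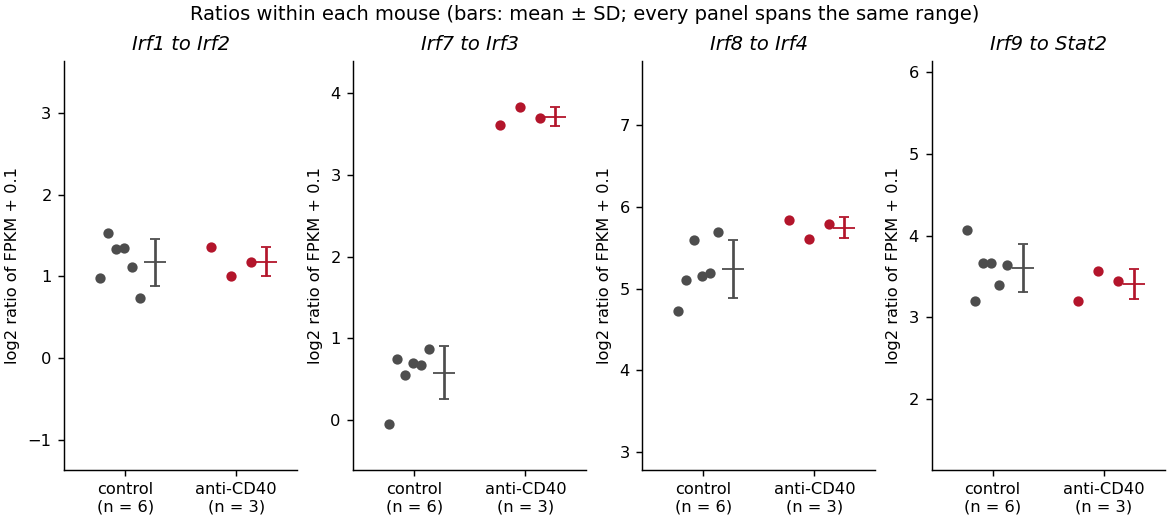
Log2 ratio of FPKM + 0.1 between pairs of genes within each mouse, with control mice in gray, anti-CD40 mice in red, and the mean ± SD beside each group; every panel spans the same range of log2 units. Irf7 to Irf3 is the panel with a wide gap, 3.62 to 3.84 against -0.05 to 0.86, while the groups overlap in the others.

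Upstream of IRF3, IRF5, and IRF7, genes of the activating route were called more often as higher than as lower. Of 21 genes tested, 12 rose, 2 fell, and 7 were not called, with a median log2 fold change of 0.79. The share called was 66.7%, against 45.1% of all genes. Zbp1 (2.73), a nucleic acid sensor, and Tmem173 (2.53), which encodes STING, rose most. The genes that fell were Mavs, the mitochondrial adaptor of RIG-I-like receptors, by 1.19, and Chuk, which encodes IKKα, by 0.87. Among kinase genes of the list besides Chuk, Ikbke rose (1.70), and Tbk1, Irak1, and Irak4 were not called. These are named after their values were seen. Markers of plasmacytoid dendritic cells, which use IRF7 for their interferon output, gave 3 of 6 higher and 3 not called (median 0.49, summed FPKM 13.8 to 25.1 against 7.39 to 12.9). The share called was 50%, close to the 45.1% of all genes. Klk1 (2.88) and Siglech (0.67) were the largest rises among these markers, but Siglech overlapped between groups. Klk1 had 11.8 FPKM in anti-CD40 mouse 5, the library with pancreatic transcripts, against 1.42 and 1.38 in mice 2 and 9. Much of the sum came from Tcf4 (mean 10.4 FPKM after anti-CD40 and 7.25 in control mice), and in mouse 5 also from Klk1. The sum therefore does not by itself show a rise of these cells. Leaving out any mouse other than control mouse 4 left 2 of these markers called. The part of these cells in the Irf7 value was not tested.

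The interferons themselves were almost unmeasured in bulk liver at this time. Of 21 interferon genes in the table, 18 were at the floor of 0.01 in all mice. Ifnb1 was at the floor in every control mouse and in anti-CD40 mice 2 and 9, and had an FPKM of 0.170 in mouse 5. Ifng had an FPKM of 0.0451, 0.0958, and 0.01 in anti-CD40 mice 2, 5, and 9 and of 0.01 to 0.194 in controls, so the groups overlapped and the gene was too low to be tested. A value at the floor shows that no level was listed at this depth. Only Ifnk was tested, through the anti-CD40 mice alone, with 0.294, 0.547, and 0.01 FPKM after anti-CD40 and 0.01 to 0.0956 in controls. It was called (log2 fold change 1.33, limma adjusted p = 0.0458), yet its groups overlapped. Its call was lost without anti-CD40 mouse 2 or 5, where it fell below the filter, and without control mouse 3, 4, 7, 11, or 12. The Ifnk call was also lost with a pseudocount of 0.01, with no filter, with quantile normalization, and with array weights.

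Irf9 (chr14:55603985-55610030) showed a small rise near the threshold. Values of 34.1, 33.7, and 31.3 FPKM were found in anti-CD40 mice 2, 5, and 9. Those of control mice spanned 18.6 to 29.8 FPKM, with a median of 24.6. The anti-CD40 mice were all above the control mice, with the highest controls, mice 7 and 8, close to them. This was a log2 change of 0.45 (SE 0.17, limma adjusted p = 0.0481). It stayed past the threshold in 11 of 19 alternatives, and leaving out any anti-CD40 mouse or control mouse 3, 4, or 11 raised the adjusted p to between 0.0575 and 0.137. Mouse 5 was among these, and without it the adjusted p was 0.124.

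Stat2, which encodes its partner in ISGF3, was also called as higher. Stat2 had 3.60, 2.76, and 2.78 FPKM in anti-CD40 mice 2, 5, and 9 against 1.12 to 2.24 in controls, a log2 change of 0.65 (SE 0.21, limma adjusted p = 0.0301). Its call was lost with no filter, with quantile normalization, and without any one of the anti-CD40 mice, where the adjusted p lay between 0.0556 and 0.135. The log2 ratio of Irf9 to Stat2 was 3.41 ± 0.18 (SD, 3 mice) with anti-CD40 and 3.61 ± 0.29 (SD, 6 mice) without, and the difference of -0.20 did not pass the exact permutation test (p = 0.262, adjusted p = 0.349 over 4 ratios). It had the opposite sign, 0.21, with quantile normalization.

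Among receptors and signaling partners, 5 of 6 interferon receptor genes rose (median log2 fold change 1.11), with Ifnlr1 (2.01), the receptor chain for type III interferon, which passed the filter only through the anti-CD40 mice, and Ifngr2 (1.43), a chain of the IFN-γ receptor, highest. Ifnar1 was the gene not called, and the share called was 83.3%, against 45.1% of all genes. Of 4 JAK and STAT genes, 3 rose (75% called, median 0.55), with Jak2 (0.85) and Stat2 (0.65) highest, and Tyk2 was not called. Jak1 and Jak2 were called in 19 of 19 alternatives and Stat2 in 14. These uncalled genes are named after their values were seen. Of 20 known targets of ISGF3 and IRF7, 17 rose and 3 were not called, a share called of 85%, with a median of 1.52. Ifi44 (2.75) and Oasl2 (2.51), both typical interferon-stimulated genes, rose most.

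Irf1 (chr11:53770014-53778374) did not pass the test. In anti-CD40 mice 2, 5, and 9, 52.8, 41.9, and 51.1 FPKM were measured. Control mice spanned 30.6 to 52.3 FPKM, with a median of 35.8. The groups overlapped, since control mice 4 and 8, at 52.3 and 48.7, reached the level of the anti-CD40 mice. The log2 change was 0.33 with a 95% confidence interval of -0.09 to 0.74 (SE 0.19, limma adjusted p = 0.179), which leaves room for a rise of up to 1.67-fold. The gene was called under 3 of 19 alternatives, with quantile normalization (0.59), with array weights (0.39), and with the Saa genes left out and the mice rescaled (0.69).

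Irf2 (chr8:46739745-46847458), its counterpart, was close behind. Its level was 20.6, 20.9, and 22.6 FPKM in anti-CD40 mice 2, 5, and 9. Control levels were 14.1 to 19.9 FPKM, with a median of 17.4. The groups did not overlap, but the gap between them was narrow and the log2 change of 0.32 (SE 0.13, limma adjusted p = 0.0648) missed the threshold. The gene was called under the same 3 alternatives as Irf1 and without control mouse 12 (0.36, limma adjusted p = 0.0385), and it had the highest control value in that mouse. The log2 ratio of Irf1 to Irf2 was 1.18 ± 0.18 (SD, 3 mice) with anti-CD40 and 1.17 ± 0.29 (SD, 6 mice) without. Their difference of 0.0054 was far below the spread between mice (exact permutation test, p = 0.952).

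Known targets of IRF1 rose while Irf1 itself was not called. Of 17 tested, 16 rose and 1 was not called, a share called of 94.1% against 45.1% of all genes. Their median log2 fold change was 1.83, and Ido1 was tested only through the anti-CD40 mice. Il12b (3.82), a subunit of IL-12, and Cd274 (3.28), which encodes PD-L1, rose most. Il15 was the gene not called, at 3.12 ± 0.743 FPKM (SD, 3 mice) with anti-CD40 and 2.74 ± 1.03 FPKM (SD, 6 mice) without (limma adjusted p = 0.561), and was named after its values were seen. The list of brakes on the family held 10 genes that limit IRF activity or interferon signaling. Of these, 6 were higher, 1 lower, and 3 not called (median 1.0), a share called of 70% against 45.1% of all genes. Tnfaip3 (3.10), which encodes A20, and Socs1 (2.69), an inhibitor of JAK kinases, rose most, and Irf2bp1, whose call was lost under 4 of 19 alternatives, was the gene called as lower. Some targets and brakes are on more than 1 of these lists, and all of the lists were compiled with results of these mice known.

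**Figure D3:**
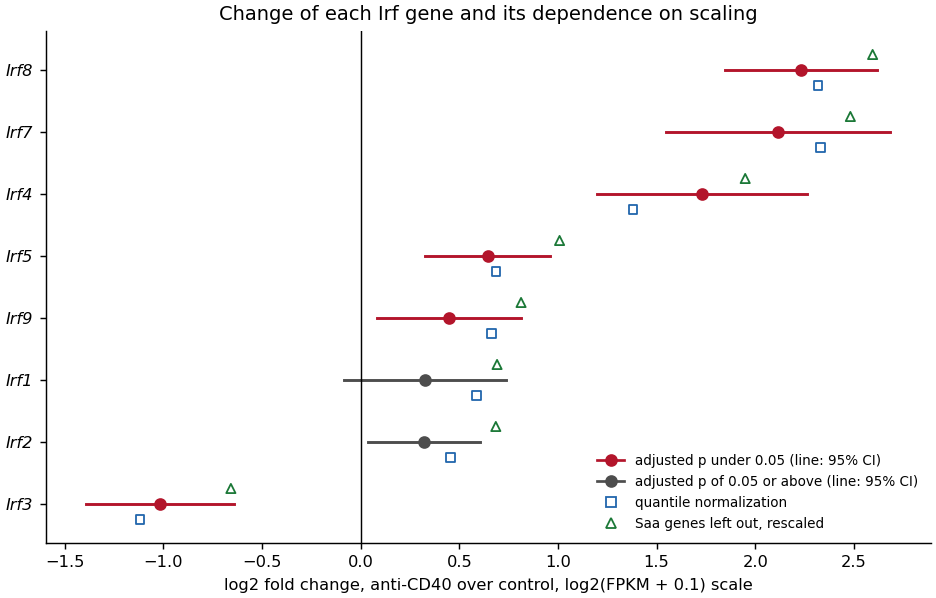
Log2 fold change (anti-CD40 over control, log2(FPKM + 0.1) scale) of each Irf gene with its 95% confidence interval, red where the adjusted p was under 0.05 and gray where it was not; squares and triangles mark 2 other scalings. Irf8 at 2.23, Irf7 at 2.12, and Irf4 at 1.73 lie far to the right, Irf3 lies left of 0 under every scaling drawn, and the triangles of Irf1 and Irf2 lie at 0.69 and 0.68.

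The calls of Irf1 and Irf2 depended on the scaling. With the Saa genes left out and every mouse rescaled to the same total, the typical gene itself moved up, the median log2 change over all genes shifting by 0.34 to 0.35. Against that median, Irf1 at 0.69 and Irf2 at 0.68 stood about as far above the typical gene as they did without rescaling. Irf3 at -0.66 was still lower after anti-CD40 on this scale, and Irf7 at 2.48 and Irf8 at 2.59 higher. All 8 members were called under this scaling, under quantile normalization, and with array weights, 7 as higher and 1 as lower.

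Markers of other cell types that could hold transcripts of the members were counted as well, against the 45.1% of all genes that were called. Of 11 neutrophil markers in the table, 9 were tested and called as higher (median 4.73, summed FPKM 4220 to 5207 against 18.4 to 156), with S100a9 (7.02) and S100a8 (7.00) highest. Ngp, Ltf, Cxcr2, and Mmp8 among them were tested only through the anti-CD40 mice, and with no filter 9 of 11 were higher. Of 9 T cell markers, 8 rose (median 1.30, summed FPKM 12.9 to 15.2 against 3.30 to 5.52), led by Cd8a (2.63), which passed the filter only through the anti-CD40 mice, and Lck (1.98), while 4 rose without anti-CD40 mouse 2 and 6 with no filter. Of 8 NK cell markers, 7 were tested and called as higher (median 2.18, summed FPKM 80.7 to 109 against 6.36 to 18.03), led by Gzma (4.47) and Gzmb (3.23). Eomes was tested only through the anti-CD40 mice, and with no filter 6 of 8 were higher. Endothelial markers showed no common direction, with 2 higher, 3 lower, and 3 not called. Their median was -0.01 and their summed FPKM 80.2 to 90.9 against 84.5 to 110. Lyve1 (2.08) and Pecam1 (0.60) were higher and Clec4g and Tek lower (-0.88 and -0.54), but Pecam1 and Tek overlapped between groups. Of the endothelial markers, 3 were called with no filter and without anti-CD40 mouse 2 or 9 or control mouse 3 or 11. Of 7 epithelial and cholangiocyte markers, 2 rose and 5 were not called, a share called of 28.6%, below that of all genes (median 0.48, summed FPKM 108 to 165 against 39.0 to 66.5). Sox9 (3.57) and Spp1 (2.39) were the genes that rose. No list other than that of the interferon ligands had a gene at the floor in all mice. The part of these cells in the members' values was not tested.

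**Figure D4:**
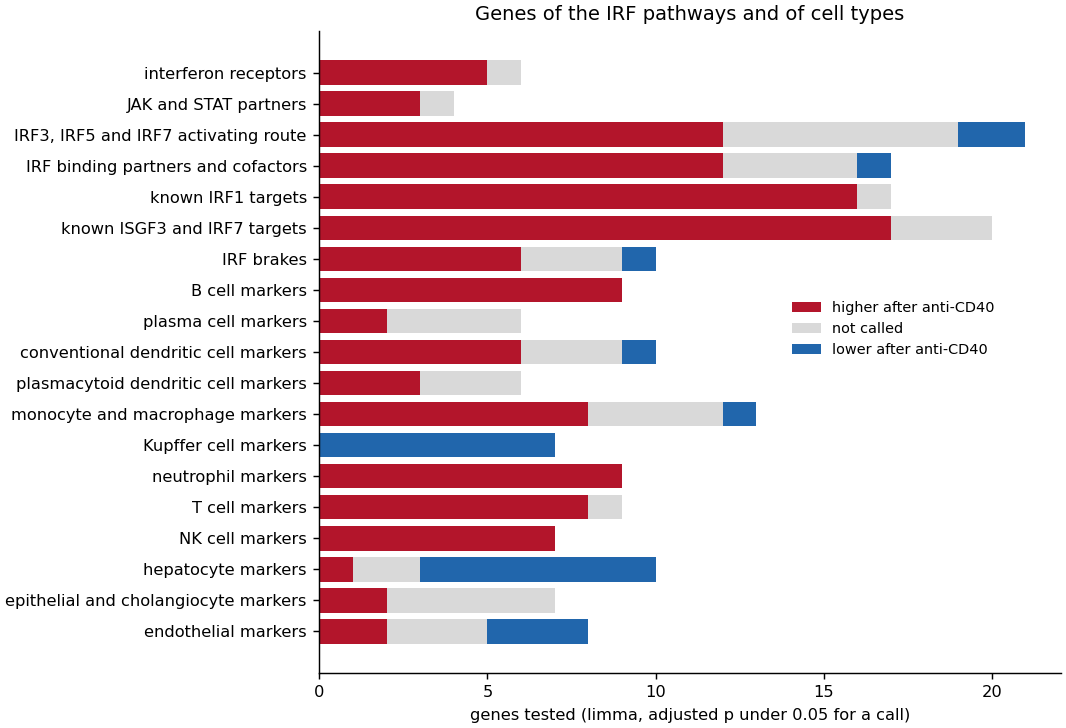
Number of tested genes in each list of IRF pathway genes and cell type markers that were higher (red), not called (gray), or lower (blue) after anti-CD40 by limma at an adjusted p under 0.05; the bar length is the number tested, which leaves out genes under the filter on low values. Known IRF1 targets (16 of 17) and known ISGF3 and IRF7 targets (17 of 20) are almost wholly red, and all 7 Kupffer cell markers are blue, where 23.5% of all genes were called higher and 21.7% lower.

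Control mice differed among themselves, and by more for some members than for others. The highest control value was 2.57 times the lowest for Irf7, while the other members with a value above the floor in every control mouse lay between 1.41 and 1.71. Control mouse 4 had the highest value of the control group for 4 members (Irf1, Irf4, Irf5, and Irf8), mouse 12 for 3 (Irf2, Irf3, and Irf7), and mouse 11 the lowest for 3 (Irf1, Irf2, and Irf4, where mouse 12 was also at the floor).

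For each called member, the 3 genes with the most similar pattern were found among the 10147 genes that averaged 1 FPKM or more, by the root mean square difference of log2(FPKM + 0.1) over the 9 mice after subtracting each gene's control mean. Irf8 lay nearest to Anxa2, Gm12250, and Sh3kbp1, with differences of 0.14, 0.14, and 0.15. Irf7 lay nearest to Pirb, Psd, and Hcls1 (0.19, 0.20, and 0.20), and Irf4 to Gca, Cpeb1, and Slc25a24 (0.19, 0.20, and 0.21). Irf5 lay nearest to Dido1, Prkd2, and Zfp319 (0.09, 0.10, and 0.11), and Irf9 to Sept8, Pck2, and Homer3 (0.03, 0.09, and 0.11). Irf3, which fell, lay nearest to Zfp524, Exosc5, and Vpreb1 (0.11, 0.11, and 0.12). All 9 mice enter this measure, so it repeats the difference between groups and carries no test.

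Neighboring genes overlap several members in the GENCODE annotation of GRCm38, and whether the authors counted by strand is not given in the sources used here, so reads could be shared. Irf3 overlaps Bcl2l12 on the opposite strand over 1065 bases, and Bcl2l12 had a log2 change of -0.32 (limma adjusted p = 0.193). Irf5 overlaps Tnpo3 on the opposite strand over 1045 bases, and Tnpo3 fell by 0.29 (limma adjusted p = 0.0418) while Irf5 rose. Irf7 overlaps Phrf1 on the opposite strand over 45 bases, and Irf9 overlaps Rnf31 on the same strand over 123 bases, and neither neighbor was called. Irf8 lies within the gene model Gm20388 of the same strand over 20337 bases, and Irf1 and Irf2 are met by models of the opposite strand, which were not analysed here. Values of these members are uncertain to the extent that such reads were split.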

How the data were processed

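RNA of 9 mouse livers was sequenced with a QuantSeq 3′ FWD kit on a NextSeq. Per the submitters' processing notes and the study's methods, the authors aligned reads to mm10 with STAR and made FPKM with Cufflinks and Cuffdiff. The deposited FPKM, 1 per gene and mouse, have a floor of 0.01. The annotation, the filter, and the strand setting are not given in the sources used here. Mice were grouped by the sample labels, and 0 columns matched no sample. The labels name separate mice and no batch.

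The 15 genes with a failed estimate were left out (24326 kept), and log2(FPKM + 0.1) of the 13807 genes averaging 0.1 FPKM or more was tested with limma 3.58.1 in R 4.3.3 (lmFit, eBayes with trend, treatment as the only factor, 2-sided), adjusted over all genes tested. Ratios of members were tested with the exact permutation test over 84 splits (smallest p 0.0238), in Python 3.11.15 with scipy 1.17.1. Read totals are not given, so depth is known only through whole reads recovered from FPKM steps (within 0.08 reads), which were found for 5 members and not for Irf1, Irf2, and Irf9. They are the smallest possible numbers, so actual reads may be more. The limma script was tested on simulated data.

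The members and lists were chosen with earlier results of these data known. Named were the Irf genes, Stat2, Ifnb1, Ifng, Spi1, Irf2bp2, the 2 largest called rises and falls of each list, and the 3 nearest genes of each called member. The alternatives changed the pseudocount (1 or 0.01), the filter (none, or 1 FPKM), the scaling (quantile, median of ratios, or with the Saa genes left out), eBayes (robust, or without the trend), and the weights of arrays, required a 2-fold change, or left out each mouse. Promoter windows are from RefSeq, and gene positions are from the deposited table, with starts counted from 1. Some items the rule would name are not reported here, and the counts over the family and the lists leave them out.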

Additional observations from a re-analysis of the deposited data

Results flagged for a closer look

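The log2 ratio of Irf7 to Irf3 in control mouse 3 stood below the other control mice. It was -0.05 there and 0.55 to 0.86 in the other 5, a gap of 0.655 of the range of the group, which is above Dixon's 95% critical value for 6 samples. Mouse 3 had the lowest Irf7 of all mice, 7.09 FPKM, beside an Irf3 of 7.34 FPKM. Of 12 control group measures examined, 1 passed this limit, and chance gives 0.6. Without control mouse 3 the difference between groups was 3.01, against 3.13 with it.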

How the results depend on the processing

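Over the alternatives run, the calls of Irf3, Irf5, Irf7, and Irf8 held in 19 of 19 and that of Irf4 in the 18 in which it was tested, and no member changed sign. Irf4 passed the filter only through the anti-CD40 mice, so its calls under a filter do not measure stability. With no filter Irf4 was called as well (limma adjusted p = 3.75e-04). The number of members called was 5 to 8, apart from the requirement of a fold change of at least 2, which left 4 members and 3142 of 6230 genes. Irf9 lost its call with no filter, without the trend, and without any anti-CD40 mouse or control mouse 3, 4, or 11. The ratio of Irf8 to Irf4 was 0.50 higher after anti-CD40 (exact permutation test, p = 0.0476), and -0.90 with a pseudocount of 0.01, since Irf4 lies near the pseudocount. Leaving out each mouse gave 0.40 to 0.59 for this ratio and 3.01 to 3.19 for Irf7 to Irf3. An exact test of 2 against 6 mice cannot go below p = 0.0714, so a lost call there says nothing about stability. Of all genes called, 3240 were higher and 2990 lower, against 2990 higher and 3456 lower with quantile normalization, 2182 and 2703 with a mean FPKM of at least 1, and 5633 and 1647 with the Saa genes left out. No paired analysis was possible because the groups share no replicate numbers.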
